A study of Homo sapiens with 6 samples.

Results

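The 48 mitotic G2/M genes described here encode the proteins that carry a cell from the end of G2 through the division of its chromosomes and cytoplasm. They were chosen by name, and each was matched through the platform annotation to 1 probe set, so all 48 were measured among the 17687 named genes of the array. The choice was made with earlier results of these data known, so counts among the 48 are no independent evidence. The study hybridised RNA of 3 human lung cancer cell lines to Clarion S arrays, with 2 conditions per line and 1 array for each, 6 in all. PC-9 and HCC827, established non-small cell lung cancer lines with a mutant EGFR, gave 1 array each after 6 hours with 0.01 µM erlotinib, an inhibitor of the EGFR kinase, and 1 control array each. H322, a line with wild-type EGFR, gave 1 array after 6 hours with the EGFR ligand EGF (labelled 100 µg/ml), and 1 control array. The labels describe the medium as holding TNF alpha and do not say whether the controls received it, so an effect of TNF alpha and one of erlotinib or EGF cannot be told apart if they did not. Each cell line stands for 1 tumour, and nothing in the labels names separate cultures.

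Dividing cells make the transcripts of these genes late in the cell cycle. The cyclin-dependent kinase CDK1, bound to A- and B-type cyclins, starts mitosis, and the spindle, the kinetochores and the spindle checkpoint then hold chromosomes until the anaphase-promoting complex (APC/C) releases them. Many of these genes are kept off in resting cells by the DREAM complex and switched on in G2 by B-MYB, the MuvB core and FOXM1, acting at a promoter element named CHR (cell cycle genes homology region) and at CCAAT boxes bound by NF-Y. EGFR signalling is known to drive the earlier passage from G1 into S phase.

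Levels are log2(intensity + 1), and a change is the treated minus the control level. A signal counts as detected when it exceeds 95% of the 612 probe sets that serve as negative controls on the same array, a level between 6.92 and 7.47. Of the 48 genes, 46 were detected on all 6 arrays, and SPAG5 and GTSE1 were not on 1 or more. The negative control probe sets had median changes of -0.005 in PC-9, -0.09 in HCC827 and 0.00 in H322. Of these probe sets 20.8%, 18.8% and 22.5% were at least 1.5-fold higher, so changes of signals near or below the detection level are uncertain. All 7 epithelial markers (among them EPCAM, CDH1 and KRT8) were detected on all arrays, and none of 4 measured leukocyte markers, PTPRC included, was detected on any. Of the 5 lung lineage markers SFTPB, SFTPC and FOXA2 were detected on no array, and 2 were detected in HCC827 only. Of 5 mesenchymal markers 2 were detected in PC-9, 1 in HCC827, and 1 in H322 with EGF only. The summed level of the 4 leukocyte markers was between 19.3 and 21.7, and that of the 7 epithelial markers between 107 and 109. These sums cover different numbers of genes and are not directly comparable. The arrays are of bulk RNA, in which more cells in a phase of the cycle and more RNA per cell cannot be told apart.

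Most of the mitotic genes were higher with erlotinib in both EGFR-mutant lines and mostly lower with EGF in the wild-type line. The median change of the 48 genes was 0.44 in PC-9 and 0.58 in HCC827, against 0.01 and 0.00 over all genes, and -0.18 in H322, against 0.01 over all genes. With erlotinib 43 of the 48 were higher in both lines, a pattern that 30.0% of all genes showed, and 1, UBE2C, was lower in both, as were 29.6% of all genes. With EGF 41 of the 48 were lower, against 48.9% of all genes. Higher in both mutant lines and lower with EGF were 39 genes, against 17.6% of all genes. Among the 7404 genes detected on all 6 arrays the shares were 37.3%, 48.6% and 23.8%. Erlotinib and EGF were given to different lines, and the difference between the responses was not tested.

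The changes were of modest size. At least 1.5-fold higher with erlotinib were 18 of the 48 genes in PC-9 and 24 in HCC827, against 6.62% and 10.5% of all genes, and 0 were as much lower in either line, where 7.19% and 9.82% of all genes were. With arrays centred on their medians the numbers higher were 20 in PC-9 and 17 in HCC827, so which line had more depended on the scaling. In both lines together 14 genes reached that size, against 2.50% of all genes: CCNB2, CDC25C, CDCA3, NEK2, HMMR, SPAG5, DLGAP5, NUSAP1, CENPA, NDC80, CENPF, KIF18A, KIF4A and KIF20A. Both PC-9 signals and the HCC827 control signal of SPAG5 were below detection, so its counts in both lines rest on dim values. With signals raised to the negative controls the counts at 1.5-fold were 17 in PC-9, 23 in HCC827 and 13 in both. At 2-fold the number was 2 in PC-9 (SPAG5 and BUB1) and 6 in HCC827 (CDC25C, CKAP2, NUSAP1, NDC80, CENPF and KIF20A), against 1.35% and 3.24% of all genes. With EGF no gene of the 48 reached 1.5-fold in either direction, where 3.76% of all genes were that much higher and 3.49% that much lower. Among the 7404 genes detected on all 6 arrays only 1.40% and 0.864% were, so this hardly sets the 48 genes apart. Across the 48 genes the changes in PC-9 and HCC827 correlated at a Pearson r of 0.51, against 0.38 over all genes and 0.59 over the 7404 detected genes. This is a description in which genes of 1 array share its scaling.

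The erlotinib comparison was tested with limma on the 4 arrays of the mutant lines, with cell line as a block and Benjamini-Hochberg adjustment over all genes. The test found 2 of the 48 genes higher, NUSAP1 and KIF20A, where 0.565% of all genes rose, and 0 lower, where 0.916% of all genes fell. An unadjusted limma p under 0.05 was reached by 32 of the 48 genes, all of them higher, against 7.53% of all genes higher and 6.83% lower. The 2 lines are the only replicates and the fit has 1 residual degree of freedom, so the spread comes mostly from other genes, and 0 to 19 of the 48 passed under the 9 alternative fits, which make 10 fits with the one reported. With no block for the cell line 0 of the 48 genes had an adjusted or an unadjusted p under 0.05 in limma.

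**Figure D1:**
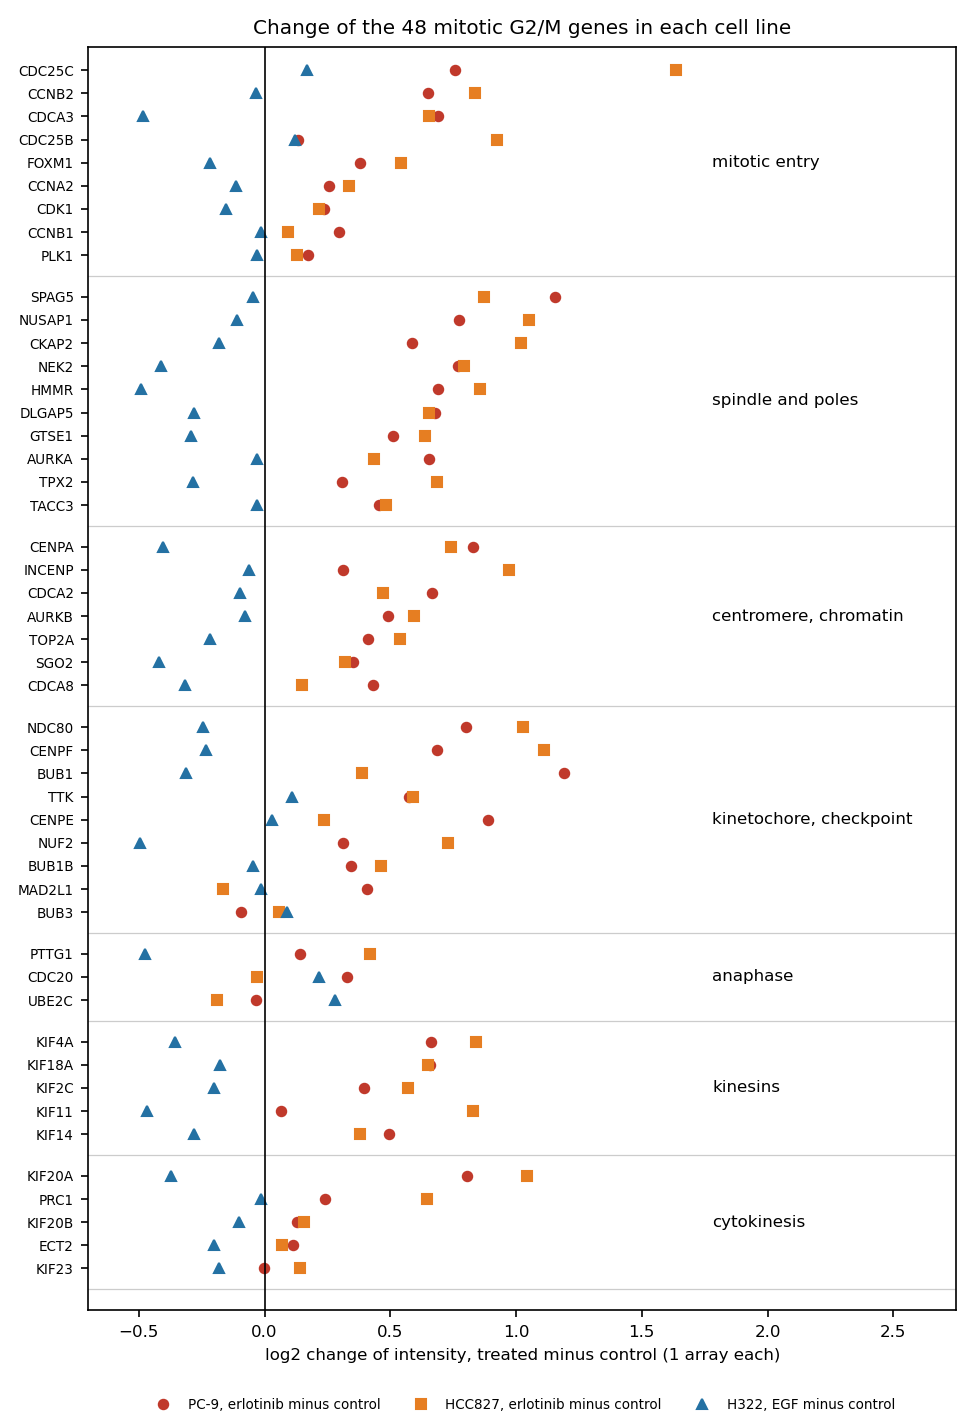
Log2 change of intensity, treated minus control, for each of the 48 genes (rows, grouped by role and ordered by mean change with erlotinib) in PC-9 (circles, erlotinib), HCC827 (squares, erlotinib) and H322 (triangles, EGF). Each point is a difference of 2 arrays without replicates. Points of the mutant lines lie to the right of 0 for 43 of the 48 genes in both lines, and 41 triangles lie to the left of it.

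**Figure D2:**
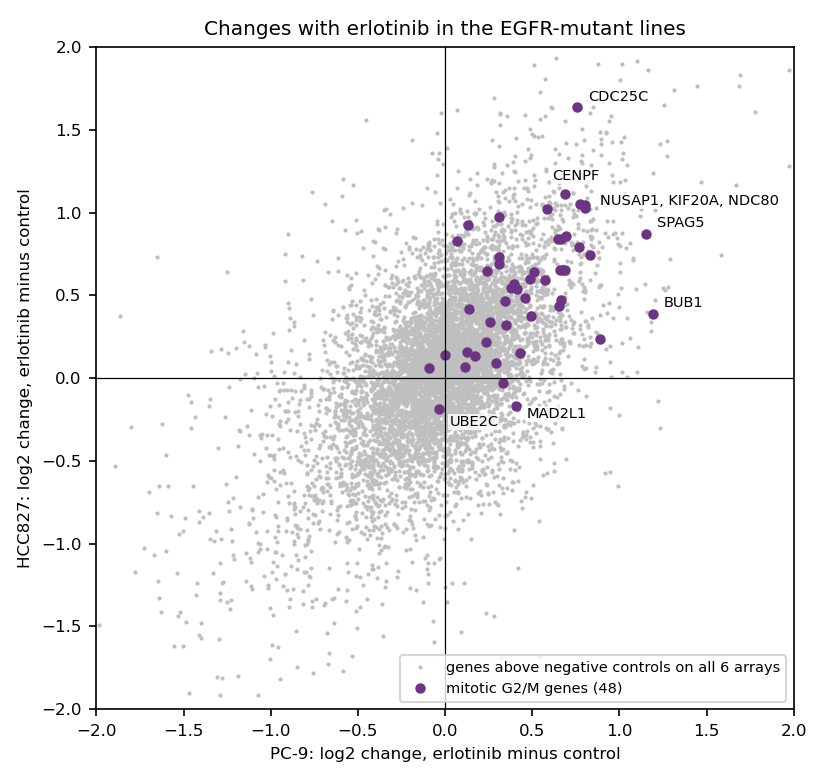
Log2 change with erlotinib in PC-9 (x axis) and HCC827 (y axis) for the 48 mitotic genes (large points) and the 7404 genes detected on all 6 arrays (small points, of which 54 lie outside the axes). The mitotic genes lie mostly in the upper right of the plot, with UBE2C alone among them below 0 in both lines.

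The promoters of the genes were searched for the CHR element and the CCAAT box. The genes were chosen as known mitotic genes, many of which are described as regulated through these elements, so high shares are no independent evidence. RefSeq promoter windows (250 bases before to 50 after a gene's start, GRCh38.p14) were at hand for 41 of the 48 genes, 7 of which have several starts. A CHR element was searched as TTTGAA, its reverse complement TTCAAA, or TTCGAA, which reads the same on either strand, and a CCAAT box as CCAAT or its reverse complement ATTGG. A CHR match was held by 30 of the 41 genes (73.2%), against 17.5% of 14250 genes of the array with a window. A CCAAT match was held by 33 (80.5%), against 42.3%, and both by 26 (63.4%), against 7.30%, with matches of the 2 motifs overlapping in 1 gene. A CHR match within 50 bases of the start was held by 27 of the 41 (65.9%), against 5.32% of the array's genes. The median GC content of the windows was 61.7%, against 62.7%. Genes with only 1 start gave a like picture, with CHR in 76.5% of 34 genes against 13.6% of 10514. A list of other mitotic genes had CHR in 23 of 29 genes with a window (79.3%), while a list for G1/S and replication had it in 3 of 27 (11.1%) and CCAAT in 18 (66.7%).

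The windows from 150 bases before to 20 bases after the start are shown for the genes that passed the test, NUSAP1 and KIF20A, and for CDC25C and SPAG5, the other genes with the largest fitted mean changes, to let their elements be read. The fitted mean change of SPAG5 rests on undetected signals on 3 of the 4 arrays, and was 0.28 with signals raised to the negative controls, against 1.01 without. Capitals mark CHR and CCAAT matches on either strand, and positions count from the start, with no position 0. NUSAP1 (chr15:41332731-41332900, plus strand) has CCAAT matches at -105 to -101 and -64 to -60 and a CHR match at 14 to 19. KIF20A (chr5:138178962-138179131, plus strand) has CCAAT matches at -94 to -90 and -67 to -63 and no match to the CHR letters in its window. CDC25C has 4 listed starts, of which the window with both elements is shown (chr5:138331785-138331954, minus strand), with CCAAT at -85 to -81 and CHR at -30 to -25. The same stretch at its other starts, not shown, held no CHR match, and a CCAAT match at 1 of them only, at -12 to -8. SPAG5 (chr17:28599006-28599175, minus strand) has a CHR match at 4 to 9. A match describes letters, not binding.
NUSAP1: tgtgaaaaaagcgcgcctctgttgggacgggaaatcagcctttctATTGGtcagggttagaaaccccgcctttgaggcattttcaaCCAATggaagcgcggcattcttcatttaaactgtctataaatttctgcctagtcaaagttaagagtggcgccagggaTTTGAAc
KIF20A: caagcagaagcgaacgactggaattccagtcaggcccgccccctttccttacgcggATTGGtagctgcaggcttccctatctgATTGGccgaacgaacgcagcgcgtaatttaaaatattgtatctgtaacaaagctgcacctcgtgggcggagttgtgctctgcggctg
CDC25C: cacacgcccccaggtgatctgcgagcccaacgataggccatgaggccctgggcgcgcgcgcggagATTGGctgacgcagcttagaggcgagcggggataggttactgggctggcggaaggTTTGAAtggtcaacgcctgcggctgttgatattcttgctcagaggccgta
SPAG5: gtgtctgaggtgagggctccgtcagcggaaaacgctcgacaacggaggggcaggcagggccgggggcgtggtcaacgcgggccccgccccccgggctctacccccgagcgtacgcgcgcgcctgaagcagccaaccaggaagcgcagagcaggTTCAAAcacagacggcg
Genes with a CHR match had a median mean change of 0.55 with erlotinib (30 genes) and those without one 0.48 (11 genes), and with EGF the medians were -0.19 and -0.18.

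Genes of mitotic entry included the cyclins and their kinase, the CDC25 phosphatases that activate it, the transcription factor FOXM1 and the kinase PLK1. All 9 were higher in both mutant lines, with medians of 0.29 in PC-9 and 0.54 in HCC827, and 0 passed the test (5 had an unadjusted limma p under 0.05). CDC25C, whose promoter is shown above, had 10.16 in PC-9 and 11.64 in HCC827 with erlotinib, against 9.40 and 10.00 in the controls of the same lines. It was higher by 1.69-fold in PC-9 cells and 3.11-fold in HCC827 cells, with a mean change of 1.20 ± 0.25 (limma's moderated SE, n = 2 lines, adjusted p = 0.0649). Both erlotinib arrays lay above both control arrays, and HCC827 with erlotinib stood highest. The B-type cyclin CCNB2 had 11.80 in PC-9 and 12.54 in HCC827 with erlotinib, against 11.15 and 11.70 in the controls of the same lines, again with no overlap (mean change 0.74 ± 0.16, limma adjusted p = 0.0733). CDCA3, a protein linked to mitotic entry through the destruction of the kinase WEE1, had 8.19 in PC-9 and 9.81 in HCC827 with erlotinib, against 7.50 and 9.16 in the controls of the same lines. Its changes were of like size in both lines, and the groups overlapped, with the HCC827 control above PC-9 with erlotinib (mean change 0.67 ± 0.23, limma adjusted p = 0.233). CDC25B, another activating phosphatase, had 9.29 in PC-9 and 12.88 in HCC827 with erlotinib, against 9.16 and 11.96 in the controls of the same lines, with most of the difference in HCC827.

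Smaller changes were measured for central regulators. CCNB1, the main mitotic cyclin, had changes of 0.29 in PC-9 and 0.09 in HCC827, CDK1 had 0.23 and 0.22, and PLK1 had 0.17 and 0.13. CCNA2, which acts from S phase on, had 0.26 and 0.34. FOXM1 had 12.77 in PC-9 and 13.59 in HCC827 with erlotinib, against 12.39 and 13.04 in the controls of the same lines, or 1.3-fold in PC-9 cells and 1.46-fold in HCC827 cells (mean change 0.46 ± 0.14, limma adjusted p = 0.183). None of these 5 passed the test, and differences between genes were not tested.

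Spindle and spindle pole genes had the highest medians of the 7 role groups, 0.67 in PC-9 and 0.74 in HCC827, and all 10 were higher in both lines. NUSAP1, which bundles spindle microtubules, passed the test. It had 13.19 in PC-9 and 13.60 in HCC827 with erlotinib, against 12.42 and 12.55 in the controls of the same lines. The arrays did not overlap between conditions, and NUSAP1, whose promoter is shown above, was higher by 1.71-fold in PC-9 cells and 2.07-fold in HCC827 cells (mean change 0.91 ± 0.14, limma adjusted p = 0.0357). The call held in 7 of 10 fits and was lost among detected genes only, without the trend and without the block. SPAG5, also called astrin, had 7.23 in PC-9 and 7.83 in HCC827 with erlotinib, against 6.07 and 6.95 in the controls of the same lines, but only the HCC827 erlotinib signal was detected, which makes it at least 1.47-fold higher there and gives no fold in PC-9. CKAP2, a microtubule protein of the spindle, had 12.20 in PC-9 and 12.27 in HCC827 with erlotinib, against 11.62 and 11.25 in the controls of the same lines, without overlap (mean change 0.80 ± 0.17, limma adjusted p = 0.0763).

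The other members of the spindle group lay between 0.31 and 0.86 in the single lines. NEK2, a kinase that separates centrosomes, had 0.77 in PC-9 and 0.79 in HCC827. DLGAP5, which stabilises kinetochore fibres, had 0.68 and 0.65, and HMMR, a spindle pole protein first known as a hyaluronan receptor, had 0.69 and 0.86. The kinase AURKA had 0.65 and 0.44, its activator TPX2 0.31 and 0.69, its partner TACC3 0.46 and 0.48, and the microtubule-binding GTSE1 0.51 and 0.64. The PC-9 control signal of GTSE1 was not detected, which makes it at least 1.39-fold higher there. All 10 members of the group had an unadjusted limma p under 0.05, and 1 passed after adjustment.

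Centromere and chromatin genes were higher in both lines for all 7 members, with medians of 0.43 in PC-9 and 0.54 in HCC827, and 0 passed (5 had an unadjusted limma p under 0.05). CENPA, the histone H3 variant of the centromere, had 8.63 in PC-9 and 9.45 in HCC827 with erlotinib, against 7.80 and 8.71 in the controls of the same lines. INCENP, the scaffold of the chromosomal passenger complex, had 11.30 in PC-9 and 12.89 in HCC827 with erlotinib, against 10.99 and 11.92 in the controls of the same lines, with the larger difference in HCC827. CDCA2, which brings a phosphatase to chromatin, had 8.17 in PC-9 and 10.62 in HCC827 with erlotinib, against 7.51 and 10.15 in the controls of the same lines, and for it the lines differed more than the conditions. Mean changes were 0.79 ± 0.23, 0.64 ± 0.20 and 0.57 ± 0.22 (limma adjusted p = 0.168, 0.187 and 0.295). AURKB, the kinase of the passenger complex, had 0.49 in PC-9 and 0.60 in HCC827, and CDCA8, another subunit of that complex, had 0.43 and 0.15. TOP2A, which untangles sister chromatids, had 0.41 and 0.54, and SGO2, a protector of centromeric cohesion, had 0.35 and 0.32.

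Kinetochore and checkpoint genes were split. NDC80, which ties kinetochores to microtubules, had 11.61 in PC-9 and 11.82 in HCC827 with erlotinib, against 10.81 and 10.79 in the controls of the same lines. Both of its erlotinib arrays lay above both controls, and it missed the threshold narrowly (mean change 0.91 ± 0.17, or 1.88-fold, limma adjusted p = 0.051). CENPF, a large protein of the outer kinetochore, had 11.25 in PC-9 and 12.17 in HCC827 with erlotinib, against 10.57 and 11.06 in the controls of the same lines, also without overlap (mean change 0.90 ± 0.18, limma adjusted p = 0.0641). BUB1, a checkpoint kinase, had 10.86 in PC-9 and 12.62 in HCC827 with erlotinib, against 9.67 and 12.23 in the controls of the same lines. It was higher by 2.29-fold in PC-9 cells and 1.31-fold in HCC827 cells, the reverse of CDC25C in which line had the larger change (mean change 0.79 ± 0.22, limma adjusted p = 0.15). NUF2, the partner of NDC80 in its complex, had 8.42 in PC-9 and 11.00 in HCC827 with erlotinib, against 8.11 and 10.27 in the controls of the same lines, and TTK, the kinase that starts the checkpoint signal, had 11.88 in PC-9 and 12.85 in HCC827 with erlotinib, against 11.30 and 12.26 in the controls of the same lines. CENPE, a kinetochore motor, had 0.89 in PC-9 and 0.24 in HCC827, and BUB1B 0.34 and 0.46. The checkpoint proteins MAD2L1 and BUB3 had changes of opposite sign in the lines, MAD2L1 with 0.41 in PC-9 and -0.17 in HCC827, and BUB3 with -0.09 and 0.06. In all 7 of the 9 were higher in both lines, 0 passed, and 7 had an unadjusted limma p under 0.05.

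The 3 genes of the anaphase machinery had a median mean change of 0.15, beside 0.14 for cytokinesis genes and 0.46 or more for the other role groups. PTTG1, or securin, which holds the enzyme separase back, had 11.35 in PC-9 and 12.18 in HCC827 with erlotinib, against 11.21 and 11.76 in the controls of the same lines. CDC20, the activator of the APC/C, had 12.79 in PC-9 and 14.51 in HCC827 with erlotinib, against 12.46 and 14.54 in the controls of the same lines. UBE2C, the enzyme that passes ubiquitin to APC/C targets, had 11.53 in PC-9 and 11.93 in HCC827 with erlotinib, against 11.56 and 12.12 in the controls of the same lines, and was the only gene of the 48 lower in both lines. Mean changes were 0.28 ± 0.17, 0.15 ± 0.14 and -0.11 ± 0.16, with limma adjusted p of 0.52, 0.722 and 0.834, and none had an unadjusted p under 0.05.

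All 5 mitotic kinesins of the spindle and chromosomes were higher in both lines, with medians of 0.49 in PC-9 and 0.65 in HCC827, and 0 passed (3 had an unadjusted limma p under 0.05). KIF4A, a motor bound to chromosomes, had 9.78 in PC-9 and 12.30 in HCC827 with erlotinib, against 9.12 and 11.46 in the controls of the same lines. KIF18A, which limits chromosome movement at the spindle equator, had 11.11 in PC-9 and 11.81 in HCC827 with erlotinib, against 10.45 and 11.16 in the controls of the same lines, and KIF2C, a microtubule depolymerase, had 11.39 in PC-9 and 12.71 in HCC827 with erlotinib, against 10.99 and 12.14 in the controls of the same lines. The changes of KIF18A were the most alike between the lines (mean changes 0.75 ± 0.18, 0.65 ± 0.17 and 0.48 ± 0.16, limma adjusted p = 0.104, 0.125 and 0.216). KIF11, which pushes the spindle poles apart, had 9.95 in PC-9 and 11.57 in HCC827 with erlotinib, against 9.88 and 10.74 in the controls of the same lines, with most of its difference in HCC827. KIF14 had 0.49 in PC-9 and 0.38 in HCC827.

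Among the cytokinesis genes KIF20A had the largest mean change, followed by PRC1, and KIF20B, ECT2 and KIF23 had the smallest. KIF20A, a kinesin that moves the passenger complex to the central spindle, passed the test. It had 11.51 in PC-9 and 12.36 in HCC827 with erlotinib, against 10.71 and 11.32 in the controls of the same lines, without overlap between the conditions, and was higher by 1.75-fold in PC-9 cells and 2.06-fold in HCC827 cells (mean change 0.92 ± 0.17, limma adjusted p = 0.0482). The call held in 5 of 10 fits, and was lost also with an offset of 16 and with the mean of probe sets. PRC1, which crosslinks the microtubules of the central spindle, had 11.99 in PC-9 and 12.60 in HCC827 with erlotinib, against 11.75 and 11.96 in the controls of the same lines, without overlap and with the larger difference in HCC827 (mean change 0.44 ± 0.17, limma adjusted p = 0.287). KIF20B had 9.91 in PC-9 and 11.29 in HCC827 with erlotinib, against 9.79 and 11.13 in the controls of the same lines. ECT2, which activates the GTPase of the contractile ring, had changes of 0.11 in PC-9 and 0.07 in HCC827, and KIF23, a central spindle kinesin, had -0.0032 and 0.14.

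Both erlotinib arrays lay above both control arrays, without regard to line, for 9 of the 48 genes: CCNB2, CDC25C, SPAG5, CKAP2, NUSAP1, NDC80, CENPF, KIF20A and PRC1. For SPAG5 this order rests on signals that were not detected on 3 of the 4 arrays, so it is no measured separation. The share of all genes with that pattern was 9.85%. For the other genes the arrays of the conditions overlapped.

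**Figure D3:**
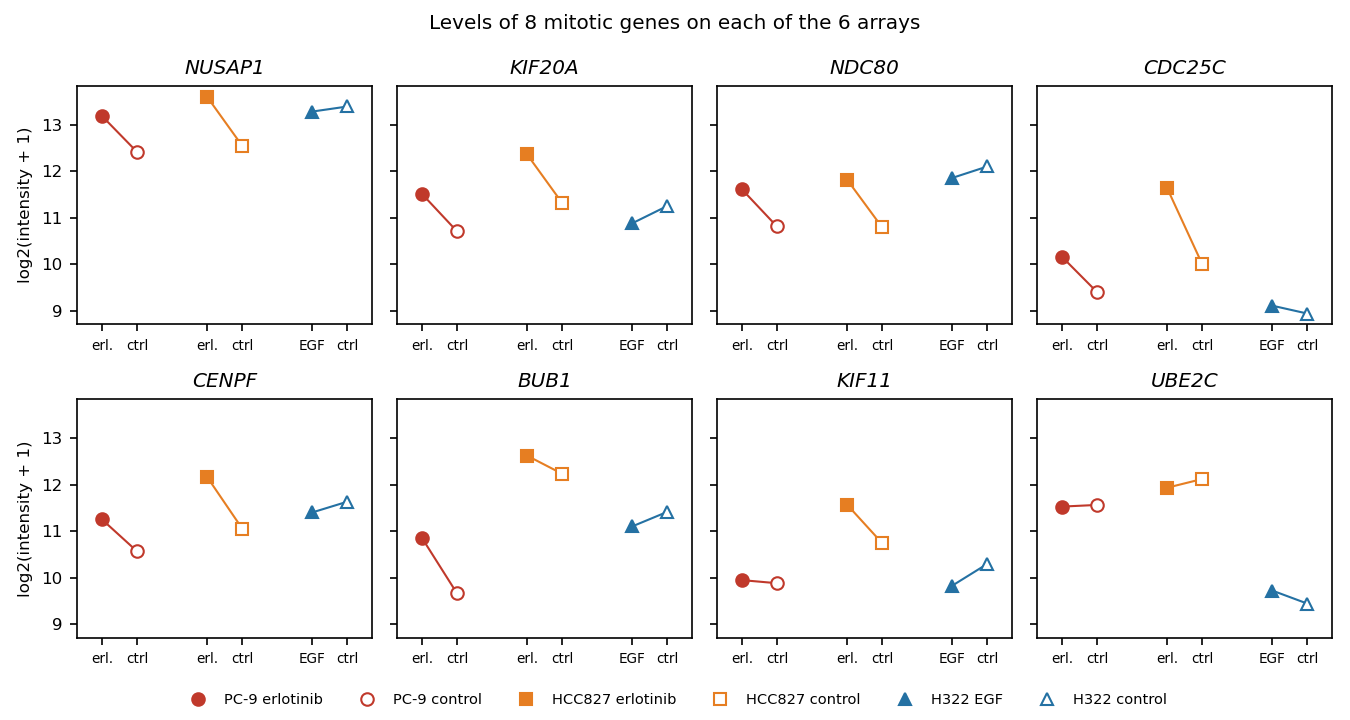
Level, log2(intensity + 1), of 8 of the genes on each of the 6 arrays, with the treated array (filled) left of its control (open) and a line joining the arrays of a cell line. NUSAP1, KIF20A, NDC80 and CENPF have both erlotinib arrays above both mutant controls, BUB1 and KIF11 differ mostly in 1 line, and UBE2C is lower with erlotinib in both.

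Control levels differed between the lines. HCC827 had the highest control level for 32 of the 48 genes (66.7%, against 35.9% of all genes) and PC-9 the lowest for 39 (81.3%, against 37.8%). The HCC827 control lay above the PC-9 control by a median of 0.93 and above the H322 control by 0.37, against 0.07 and 0.02 over all genes. MAD2L1 differed by 2.66 between the HCC827 and PC-9 controls and CDC25B by 2.80. UBE2C had 11.56 in the PC-9 control, 12.12 in HCC827 and 9.44 in H322. PLK1 and CKAP2 had the narrowest range over the 3 controls, 0.36 each. KIF23 was highest in H322, at 14.47, beside 12.27 in PC-9 and 12.89 in HCC827. There is 1 control array per line, so these orders have no replicate check, and array and line cannot be told apart.

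In H322 the lowest changes with EGF were small. NUF2 had 9.87 with EGF, against 10.36 in the H322 control, and HMMR had 8.80 with EGF, against 9.29 in the H322 control. CDCA3 had 8.04 with EGF, against 8.52 in the H322 control, PTTG1 had 10.57 with EGF, against 11.04 in the H322 control, and KIF11 had 9.83 with EGF, against 10.30 in the H322 control. These 5 were lower by between 1.38-fold and 1.41-fold, and all 5 were higher with erlotinib in both mutant lines. The gene that passed in the spindle group, NUSAP1, had 13.28 with EGF, against 13.39 in the H322 control, and KIF20A had 10.88 with EGF, against 11.25 in the H322 control. NDC80 had 11.86 with EGF, against 12.10 in the H322 control, CENPF had 11.40 with EGF, against 11.63 in the H322 control, and BUB1 had 11.10 with EGF, against 11.42 in the H322 control. All 5 of these genes were thus lower with EGF.

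The 7 role groups divided here too, with medians with EGF from -0.28 for kinesins and -0.23 for spindle genes to 0.22 for the 3 anaphase genes. The spindle, centromere, kinesin and cytokinesis groups had all of their members lower with EGF. Of the 48 genes 7 were higher. UBE2C had 9.72 with EGF, against 9.44 in the H322 control, and CDC20 had 12.76 with EGF, against 12.55 in the H322 control. CDC25C had 9.11 with EGF, against 8.94 in the H322 control. CDC25B had 10.36 with EGF, against 10.24 in the H322 control, and TTK had 11.84 with EGF, against 11.73 in the H322 control. BUB3 and CENPE were the smallest of the 7, with changes of 0.09 and 0.03. UBE2C was thus lower with erlotinib in both mutant lines and higher with EGF in H322, while CDC25C was higher in all 3 lines. No test is possible in H322, which has 1 array per condition.

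Other genes of the pathway came from lists of related complexes. A list of 37 other measured mitotic genes had medians of 0.24 in PC-9, 0.39 in HCC827 and -0.07 in H322. Of these genes 25 were higher in both mutant lines, against 30.0% of all genes. Past the threshold 1 rose and 0 fell, against 0.565% and 0.916% of all genes. ASPM, a spindle pole protein, had 10.96 in PC-9 and 12.13 in HCC827 with erlotinib, against 9.92 and 11.02 in the controls of the same lines, and rose by 1.07 ± 0.17 (limma adjusted p = 0.0365, called in 7 of 10 fits). KIFC1, a minus-end motor of the spindle, had 0.47 in PC-9 and 1.15 in HCC827, short of the threshold (limma adjusted p = 0.138). PSRC1, a microtubule protein, was not detected in PC-9 or H322 and had a change of 0.78 in HCC827. Of 15 measured condensin and cohesin genes, which fold and hold chromosomes, 10 were higher in both lines, against 30.0% of all genes. In limma 0 passed, and 5 were higher at an unadjusted p under 0.05, against 7.53% of all genes. The condensin genes NCAPD2 and NCAPG had 0.72 ± 0.16 and 0.67 ± 0.15, and the cohesin gene STAG2 had 0.54 ± 0.13 (limma adjusted p = 0.0881, 0.0871 and 0.103).

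The core and partners of the APC/C, 17 genes, had medians of -0.04 in PC-9 and 0.06 in HCC827 with 0 past the threshold in limma. At an unadjusted limma p under 0.05, 2 were lower and 0 higher, against 6.83% and 7.53% of all genes. ANAPC1, ANAPC7 and CDC23 had -0.58 ± 0.20, -0.58 ± 0.18 and 0.37 ± 0.18. The 15 genes of the DREAM, MuvB and NF-Y complexes had medians of 0.08 in PC-9 and 0.04 in HCC827. In both lines 7 were higher and 4 lower, against 30.0% and 29.6% of all genes. At an unadjusted limma p under 0.05, 4 were higher and 2 lower, against 7.53% and 6.83%. After adjustment 1 rose, against 0.565% of all genes, and 0 fell, against 0.916%. That gene, TFDP2, a dimer partner of E2F factors, had 13.07 in PC-9 and 11.77 in HCC827 with erlotinib, against 11.99 and 11.05 in the controls of the same lines, and rose by 0.90 ± 0.17 (limma adjusted p = 0.0498). That call held in 4 of 10 fits, and was lost with an offset of 16, among detected genes only, with the mean of probe sets, without the trend, without the block and with all 6 arrays. LIN9, a MuvB subunit, had 1.01 ± 0.26, and the repressor gene E2F5 had -0.81 ± 0.26, with -0.44 in PC-9 and -1.18 in HCC827. Both missed the threshold, at limma adjusted p of 0.124 and 0.212. Among 9 brakes on CDK1 and on entry into mitosis 1 fell past the threshold, against 0.916% of all genes. In both lines 3 were higher and 3 lower, against 30.0% and 29.6% of all genes. Of the 9 genes 6 were detected on all 6 arrays. CDKN1A, which encodes the CDK inhibitor p21, had 11.21 in PC-9 and 8.89 in HCC827 with erlotinib, against 12.85 and 10.22 in the controls of the same lines, a mean change of -1.48 ± 0.18 (limma adjusted p = 0.0182, called in 8 of 10 fits). SFN, the 14-3-3 sigma protein, had -0.35 in PC-9 and -1.56 in HCC827 (mean -0.96 ± 0.24, limma adjusted p = 0.12, called in 3 of 10 fits). The kinase gene WEE1 had 0.32 and 0.72 (mean 0.52 ± 0.18, limma adjusted p = 0.254, called in 0 of 10).

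The G1/S and DNA replication list, 30 measured genes, covers the earlier step of the cycle. Its medians were 0.01 in PC-9, 0.01 in HCC827 and 0.27 in H322. With erlotinib 10 were higher and 10 lower in both lines, 33.3% each, near the 30.0% and 29.6% of all genes. In limma 0 passed, and 4 were higher and 4 lower at an unadjusted p under 0.05, 13.3% each, against 7.53% and 6.83% of all genes. With EGF 26 of the 30 were higher, against 7 of the 48 mitotic genes and 51.1% of all genes. Only 21 of the 30 were detected on all 6 arrays, against 46 of the 48, so some of these signs rest on undetected signals. CCNE1, the G1/S cyclin E1, had -1.09 in HCC827 with erlotinib and 0.62 in H322 with EGF. CDC25A, which activates CDK2, had -0.95 and 0.31, and the licensing factor CDT1 had 1.12 and 0.57. In PC-9 the erlotinib signal of CCNE1, the control signal of CDT1 and both signals of CDC25A were not detected. The difference between the lists was not tested.

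**Figure D4:**
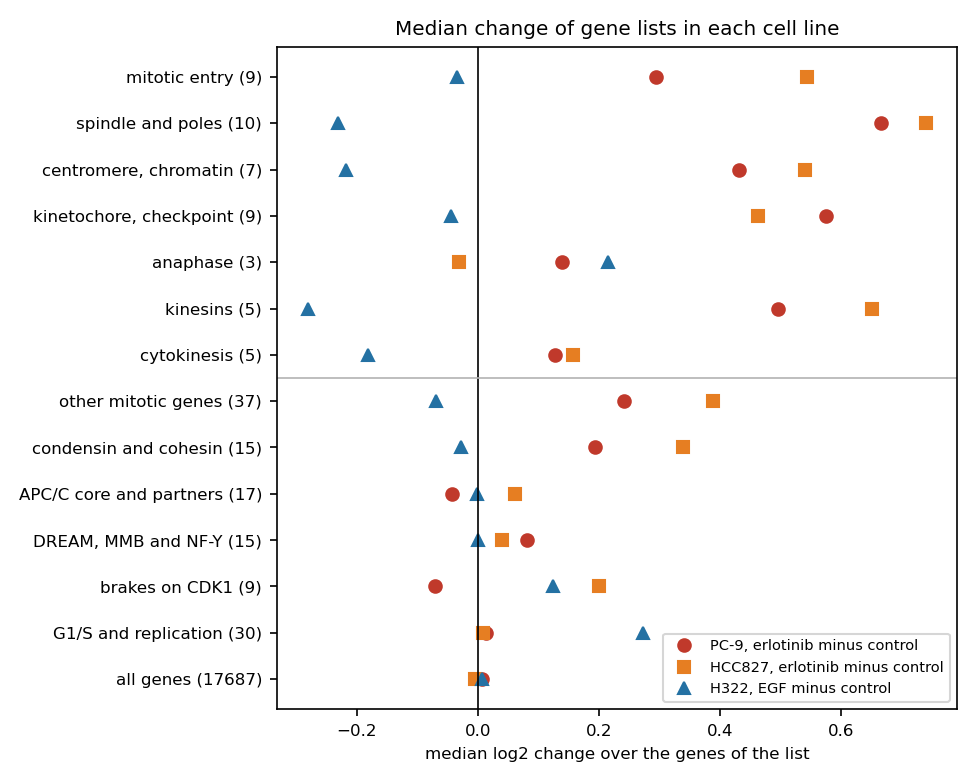
Median log2 change, treated minus control, of each gene list (rows, number of genes in brackets) in PC-9 (circles, erlotinib), HCC827 (squares, erlotinib) and H322 (triangles, EGF). The 7 groups of the 48 genes stand above the grey line. Of these 6 have erlotinib medians above 0 in both lines, the anaphase genes do not, and the G1/S list is near 0 with erlotinib and highest of all with EGF, at 0.27.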

How the data were processed

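Per the labels' protocols, Trizol was used to extract total RNA, from which biotin-labelled cRNA was made for Clarion S arrays. The deposited values are linear probe set intensities. The submitters' processing notes name Affymetrix Expression Console as the authors' tool; version, background correction, summarisation and genome build are not given in the sources read. Array medians between 148 and 157 show a common scaling, so that a shift of most genes together would not be seen.

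Log2(value + 1) was computed from the deposited intensities, for 17709 of 24351 probe sets with 1 gene symbol (6642 had none, 0 several), and the brightest probe set was kept for 20 genes with several, which left 17687 genes. All 48 members have 1 probe set each. Members and lists were chosen with earlier results of these data known, as were the tests, so counts in a list are no independent evidence. Erlotinib was compared with control by limma 3.58.1 (R 4.3.3), with lmFit and eBayes with a trend, cell line as a block, two-sided, adjusted over all genes at 0.05. The block comes from the cell line, since arrays of 1 line correlated at 0.988 (HCC827) or 0.991 (PC-9) and controls of different mutant lines at 0.907. The prior adds 6.58 degrees of freedom to 1. P-values measure the spread between these samples and of other genes. An undetected array gives a fold as "at least", with that array set to its negative control percentile, but counts at a fold threshold use the log2 changes as they are. The script was tested on simulated data with changes larger than those of the 48 genes, so its power at their size was not tested. The number of arrays limits the precision.

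Named genes follow a rule: members that passed, the 3 of each role group with the largest absolute mean change, the 5 highest and 5 lowest with EGF, the 3 that differed most between the mutant lines, and of each other list those that passed and the 3 with the largest absolute change. Other members are named with their changes. Promoter windows were shown for the members that passed and the next 2 by mean change. Alternatives were an offset of 16, a filter on undetected genes, signals raised to the negative controls, median centring, quantile normalization, mean of probe sets, no trend, no block, all 6 arrays in 1 fit, 2-fold in place of 1.5-fold, and each line alone.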

Additional observations from a re-analysis of the deposited data

Results flagged for a closer look

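For 4 of the 48 genes the change with erlotinib had opposite signs in PC-9 and HCC827, and the difference between the lines was not tested, since each has 1 array per condition. MAD2L1 had 0.41 in PC-9 and -0.17 in HCC827. CDC20 had 0.33 and -0.031, BUB3 had -0.092 and 0.058, and KIF23 had -0.0032 and 0.14. For CDC20, BUB3 and KIF23 at least 1 of the changes was very small. Of all genes 30.0% were higher in both lines and 29.6% lower in both, so differing signs were less common among the 48 genes than over the array.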

How the results depend on the processing

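The number of the 48 genes past the limma threshold, 2 in the fit reported, depended on the processing and never included a gene that fell. It was 1 with an offset of 16 and with the mean of probe sets, 0 among genes detected on at least 1 array of the fit (30 with an unadjusted p under 0.05), 0 without the trend (22 unadjusted), 0 with no replicate block for the cell line (0 unadjusted), 3 with all 6 arrays in 1 fit, 9 with arrays centred on their medians, 15 with quantile normalization and 19 with signals raised to the negative controls. In the last 3 settings 1.53%, 2.54% and 3.01% of all genes rose, against 0.565% in the fit reported, so calls were more frequent across the array. The median change of the 48 genes kept its sign under every alternative tried in each line, and was 0.44 and 0.58 with erlotinib when each mutant line stood alone, where no test is possible. At 2-fold in place of 1.5-fold the genes higher were 2 in PC-9 and 6 in HCC827. At 1.5-fold they were 20 in PC-9, 17 in HCC827 and 12 in both with arrays centred on their medians. With quantile normalization they were 20, 20 and 14, against 18, 24 and 14 as reported. When signals were raised to that negative control level, all genes had a median of -0.35 in HCC827 and -0.34 in H322, since that floor differs between arrays; 46 of the 48 genes lie above it on all arrays. The causes of the changes in the number called were not tested. A change within a single line has no replicate check, and dim signals, as for SPAG5, give bounds only. With signals raised to the negative controls CDC25A and PSRC1 had mean changes of -0.47 and 0.40, against -0.87 and 0.80 without.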
